A study of Mus musculus with 6 samples.

Results

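The 31 genes described here encode the machinery that brings proteins into mitochondria, the chaperones that fold them inside and the proteases that remove them. They were listed by gene symbol and role, with earlier results of these data known, and 28 of the 31 had a probe set annotated to that gene alone, out of 18193 such genes on the array. Expression was read with Affymetrix Mouse430_2 arrays in the mouse line C2C12, a line of myoblasts (muscle precursor cells) that the labels call undifferentiated, with 3 samples labelled as pyruvate treated, 3 labelled as untreated and 1 array for each. Pyruvate cells were incubated for 72 h in DMEM made without sodium pyruvate and then supplemented with 50 mM of it. Untreated cells spent the same 72 h in basal DMEM, and whether that medium held pyruvate of its own is not stated in the labels. All dishes, 100 mm wide, received 10% fetal bovine serum, 4 mM L-glutamine and 1% antibiotics. The labels give no genetic change in any group, and a control for the added sodium or osmolality was not analysed here. The title concerns mitochondrial biogenesis induced by pyruvate without PGC-1alpha, and growing mitochondria must import most of their proteins.

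Most mitochondrial proteins are made in the cytosol and enter through the TOM complex of the outer membrane. From there, precursors with a presequence pass through the TIM23 translocase into the matrix, while carrier proteins of the inner membrane are escorted by small TIM chaperones to the TIM22 translocase. Matrix HSP70 pulls the chain in, HSP60 with HSP10 folds it, and the LON, ClpXP and AAA proteases degrade damaged or surplus proteins, a system that cells can induce when matrix proteins misfold. In muscle, mitochondria expand as myoblasts differentiate, and import expands with them.

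The arrays were alike in scale. The trimmed mean signal was 150 on each of the 6, and medians lay between 30.3 and 33.0. Markers placed the cells in the muscle lineage: Myod1, the myoblast regulator, averaged a signal of 1525 in pyruvate and 1268 in untreated cells. The untreated arrays carried differentiation genes although the labels call the cells undifferentiated: Myog, a regulator of myoblast fusion and differentiation, averaged 212.0 in pyruvate and 1738 in untreated cells. Compared with untreated arrays, 6 of 7 myotube markers were lower with pyruvate and 0 higher, and their summed signal was 664.2 to 844.4 in pyruvate arrays against 5137.1 to 5524.1 in untreated arrays. Of the 6 myoblast markers 4 were lower and 1 higher, with sums of 7290.1 to 7480.6 in pyruvate and 8350.5 to 8727.3 in untreated arrays. Sums for 4 macrophage markers (113.4 to 167.0 in pyruvate, 115.3 to 147.5 in untreated), 3 endothelial markers (32.6 to 44.7 in pyruvate, 50.3 to 63.4 in untreated) and 3 measured adipocyte markers (24.2 to 39.4 in pyruvate, 25.8 to 36.7 in untreated) were low. Below the signal filter lay 2 of the macrophage, 2 of the endothelial and 3 of the adipocyte markers, and none of the markers was at exactly 0 in every array. The part of the difference in muscle differentiation in the results below was not tested. Fewer cells of one state and less RNA per cell cannot be told apart in such bulk samples.

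Across the whole set the changes were small and ran both ways. Each gene was read by its brightest probe set on a log2(signal + 16) scale, and a change counted as called when its adjusted p in limma, over all 22519 probe sets tested, was under 0.05. All 28 measured genes passed the signal filter, whose threshold was a signal of about 30.34. Of these 28, 5 rose and 3 fell with pyruvate (28.6% called), against 35.1% of all 10685 genes tested, of which 20.7% rose and 14.5% fell. The called share was thus close to, and below, that of genes in general. The median log2 change was 0.03 for the 28 genes and 0.03 for all genes. Individual changes ran from -0.37 for Yme1l1 to 0.39 for Lonp1. A change smaller than 0.25 in either direction was measured in 24 of the 28 (85.7%), against 67.8% of all genes. Pyruvate and untreated arrays were fully separated for 14 of the 28, against 48.6% of all genes.

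**Figure D1:**
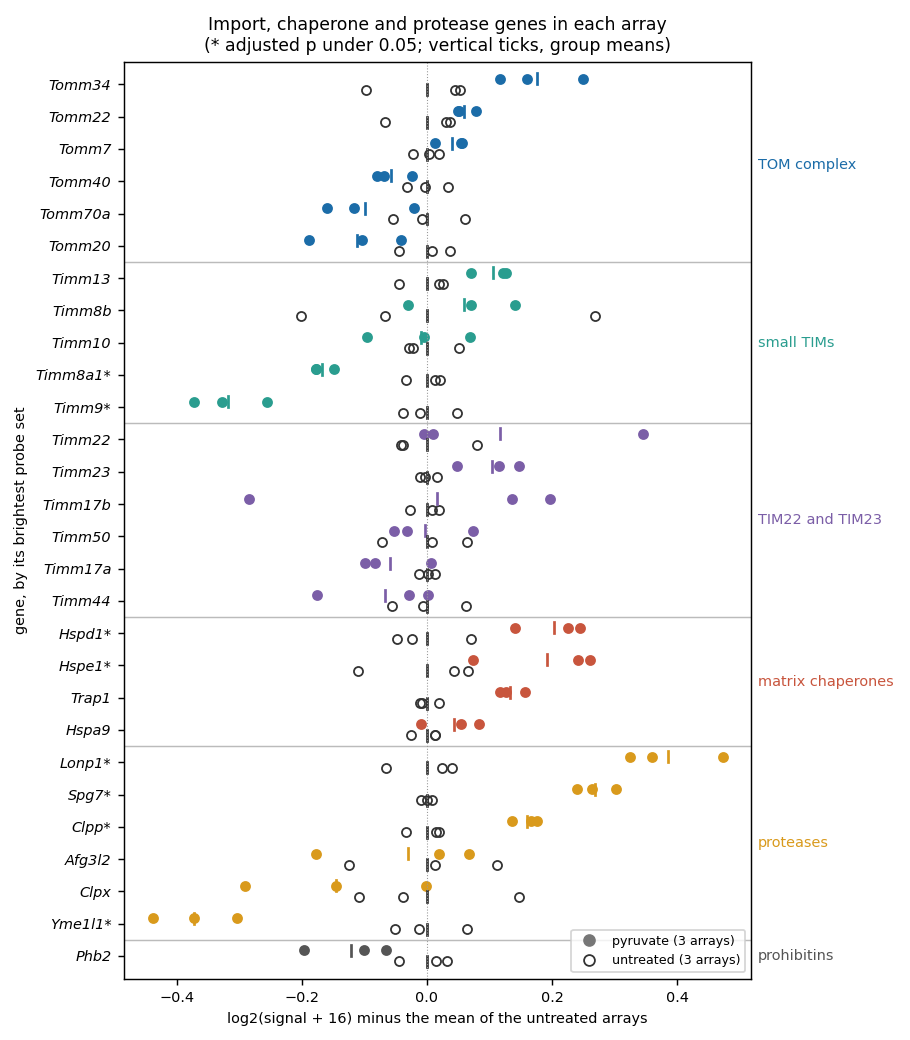
Signals of the 28 measured genes in each array, as log2(signal + 16) minus the mean of the gene's 3 untreated arrays (horizontal axis), with pyruvate arrays as filled points above untreated arrays as open points and vertical ticks for group means. Lonp1, Spg7 and Clpp lie to the right of their untreated arrays and Yme1l1 to the left, while most TOM and TIM genes overlap or nearly overlap theirs.

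On brightest probe sets, these small groups of genes differed in how many members were called, beside 35.1% of all genes tested. In the TOM group, which here includes the cytosolic co-chaperone Tomm34, 0 of 6 measured genes were called. In the TIM22 and TIM23 translocases 0 of 6 were. Among the small TIMs 2 of 5 fell and 0 rose, among matrix chaperones 2 of 4 rose and 0 fell, and among proteases 3 of 6 rose and 1 fell. The measured prohibitin was not called. Median log2 changes were -0.01 for the TOM group, -0.01 for the small TIMs and 0.01 for TIM22 and TIM23. They were 0.16 for the matrix chaperones and 0.06 for the proteases. Taken over all 17 measured TOM and TIM genes, 0 rose and 2 fell. Dimmer probe sets gave further calls in the TOM, TIM and chaperone groups, with 3 of the 4 tested for Tomm70a lower. Tomm7 and Tomm20 each had 1 higher and 1 lower. No test was made of one group against another. The counts by brightest probe set depended in part on single arrays. Leaving out untreated replicate 1 left 2 listed genes higher and 1 lower. Over all genes it left 1669 higher and 1154 lower, in place of 2207 and 1546. Without untreated replicate 3 there were 3 listed genes higher and 1 lower, and 3 were higher without untreated replicate 2 or pyruvate replicate 3. Over all genes, too, fewer were called in each of these fits.

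The split between rising and falling genes also depended on how the arrays were scaled. Quantile normalization, which gives every array the same distribution, left 4 of the 28 higher and 5 lower in place of 5 and 3. In the TOM group 1 gene was then higher (Tomm34, the cytosolic co-chaperone) and 1 lower (Tomm20). Of the matrix chaperones 0 were higher and 1 lower (Hspa9). Cyclic loess gave 4 higher and 6 lower. Across all genes 2136 were higher and 1564 lower after quantile normalization, against 2207 and 1546 as scaled by the authors. Median centring gave 2431 higher and 1179 lower over all genes, and 5 higher and 2 lower of the 28. Genes with a mean between 11 and 12 on the log2 scale were higher with pyruvate as a class, with a median change of 0.17 over 353 genes, of which 55.0% were called higher. The 4 listed genes in that range, Hspd1, Hspe1, Hspa9 and Tomm20, moved more under quantile normalization than any other of the 28.

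**Figure D2:**
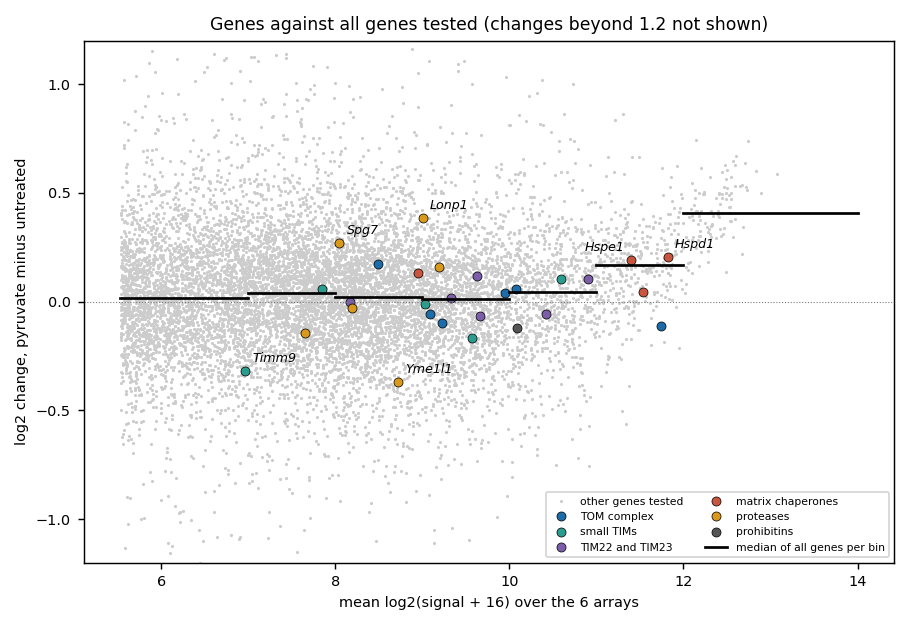
Log2 change with pyruvate (vertical axis) against mean log2(signal + 16) over the 6 arrays (horizontal axis) for the 10685 genes tested in grey and the 28 genes in colour, with black bars for the median of all genes in each range of brightness. The grey cloud bends upward above 11, where Hspd1 and Hspe1 lie, while Lonp1, Spg7 and Yme1l1 lie at brightness levels where the median gene is near 0; changes beyond 1.2 on either side (73 genes) are outside the plot.

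Sequence before the start is shown for Lonp1, Spg7 and Yme1l1, whose changes were called most steadily, and for the stretch between Hspd1 and Hspe1, which are transcribed in opposite directions from neighbouring starts. Sequences are from RefSeq on build GRCm38.p6, 5′ to 3′ on the strand of the named gene, ending at the base before its start. A promoter entry was found for 25 of the 28 genes. Capitals mark matches, on either strand, to the motifs GCGCA followed by any base and GCGC (bound by NRF1) and CCGGAAG (bound by ETS factors such as GABPA). They also mark GAANNTTC and TTCNNGAA, each an inverted pair of heat shock element units.
Hspe1, 215 bases between its start and that of Hspd1, chr1:55087933-55088147, plus strand: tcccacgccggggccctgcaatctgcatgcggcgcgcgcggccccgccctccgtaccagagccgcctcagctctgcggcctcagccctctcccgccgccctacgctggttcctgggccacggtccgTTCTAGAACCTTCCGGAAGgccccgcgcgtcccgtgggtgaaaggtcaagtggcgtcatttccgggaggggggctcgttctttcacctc
Lonp1, 250 bases, chr17:56626904-56627153, minus strand: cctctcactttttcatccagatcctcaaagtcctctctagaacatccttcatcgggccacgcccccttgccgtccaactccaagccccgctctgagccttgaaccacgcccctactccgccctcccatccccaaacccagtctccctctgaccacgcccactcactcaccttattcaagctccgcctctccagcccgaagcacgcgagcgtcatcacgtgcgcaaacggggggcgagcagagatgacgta
Spg7, 250 bases, chr8:123065258-123065507, plus strand: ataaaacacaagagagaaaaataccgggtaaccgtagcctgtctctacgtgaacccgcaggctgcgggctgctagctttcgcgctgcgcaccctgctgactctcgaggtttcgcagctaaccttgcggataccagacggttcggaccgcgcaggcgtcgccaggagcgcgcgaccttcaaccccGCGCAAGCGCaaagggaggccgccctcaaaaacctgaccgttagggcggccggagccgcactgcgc
Yme1l1, 250 bases, chr2:23156255-23156504, plus strand: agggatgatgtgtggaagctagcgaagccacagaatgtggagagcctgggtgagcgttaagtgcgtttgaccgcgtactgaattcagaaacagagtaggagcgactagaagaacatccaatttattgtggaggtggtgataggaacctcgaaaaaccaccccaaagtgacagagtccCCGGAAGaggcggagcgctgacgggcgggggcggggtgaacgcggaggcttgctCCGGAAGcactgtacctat

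In the window between Hspd1 and Hspe1 the capitals hold 3 overlapping heat shock matches. They also hold 2 overlapping ETS matches, 1 on each strand, which share bases with the heat shock matches. The Spg7 window holds an NRF1 match, the Yme1l1 window 2 separate ETS matches, and the Lonp1 window none of these letters. Over the 250 bases before the start, the ETS motif was found in 10 of the 25 listed genes (40.0%), against 7.83% of all 27025 genes with an entry. Its holders were Tomm22, Tomm34, Tomm70a, Timm8b, Timm10, Timm23, Hspd1, Hspe1, Yme1l1 and Phb2, which include 2 genes that rose, 1 that fell and 7 that were not called. NRF1 matches were present in 3 of 25 (12%), against 4.23% of all genes, and GAANNTTC in 3 of 25 (12%), against 7.73%. TTCNNGAA was in 6 of 25 (24.0%), against 8.11%. Neither TGATGNAA, a form of the amino acid response element bound by ATF4, nor AAGATGGC, bound by YY1, was found before any of the 25, against 3.91% and 1.83% of all genes. The Hspd1 and Hspe1 windows share 285 of their 300 bases, so both genes are counted for the same ETS and heat shock matches. These matches describe letters in a window and not binding.

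Read by brightest probe sets, proteases gave the largest changes in both directions. Some dimmer probe sets of import and chaperone genes moved further, as given below. Lonp1 encodes the LON protease of the matrix, which degrades oxidised and misfolded proteins. Its signal was 547.0, 560.9 and 607.9 in pyruvate arrays, against 413.8, 441.3 and 446.2 in untreated arrays. All 3 pyruvate arrays lay above all 3 untreated ones. The means were 571.9 ± 31.9 in pyruvate and 433.8 ± 17.5 in untreated cells (SD, n = 3 each). This was a rise of 30.7%, or 0.39 on the log2 scale (standard error 0.06, adjusted p = 0.00052).

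Spg7 encodes paraplegin, a subunit of the m-AAA protease, which faces the matrix from the inner membrane. Its signal was 280.5, 268.1 and 272.7 in pyruvate arrays, against 226.0, 224.7 and 223.1 in untreated arrays. The groups did not overlap and each was tight. The log2 change was 0.27 with a standard error of 0.06 (adjusted p = 0.0067). Afg3l2, another subunit of that protease, was at 273.8 ± 25.5 in pyruvate and 279.9 ± 24.1 in untreated cells, with overlapping arrays (log2 change -0.03, 95% interval -0.22 to 0.15, adjusted p = 0.82).

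Clpp and Clpx encode the peptidase and the ATPase of ClpXP, another matrix protease. Clpp was at 609.5, 592.5 and 605.4 in pyruvate arrays, against 543.7, 524.9 and 545.1 in untreated arrays, so that the groups did not overlap. It rose by 0.16 on the log2 scale with a standard error of 0.05 (adjusted p = 0.029). The call was narrow: with the replicate block the adjusted p was 0.051, it was 0.081 without a variance trend, and leaving out any array but pyruvate replicate 2 gave 0.051 to 0.10. Its other, dimmer probe set was not called (0.09, adjusted p = 0.54), nor was the mean over its probe sets (0.13, adjusted p = 0.18). Clpx was at 175.8 ± 19.2 in pyruvate and 196.1 ± 19.7 in untreated cells, and its interval, -0.36 to 0.07, reached the lowest value of any gene not called.

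Yme1l1 encodes the i-AAA protease, whose catalytic side faces the intermembrane space and which cuts the fusion protein OPA1. Its signal was 353.0, 371.0 and 336.6 in pyruvate arrays, against 457.7, 445.1 and 483.4 in untreated arrays. All pyruvate arrays lay below all untreated ones. The means were 353.5 ± 17.2 in pyruvate and 462.1 ± 19.5 in untreated cells, and the gene fell by 0.37 on the log2 scale with a standard error of 0.06 (adjusted p = 0.00075). A second probe set was lower as well, at 247.8, 307.4 and 282.7 in pyruvate against 387.8, 380.3 and 383.7 in untreated arrays (log2 change -0.44, adjusted p = 0.0010). The third in brightness, much dimmer, was not called (0.15, adjusted p = 0.39), and the last lay below the filter. By the mean over its probe sets the gene was lower by 0.21 (adjusted p = 0.040). Lonp1, Spg7 and Yme1l1 were called in the same direction in each of the 17 alternative fits run on their brightest probe set, leaving out any single array included. Lonp1 and Spg7 each had only 1 tested probe set, so their calls could not be compared with another.

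Of the 4 matrix chaperones 2 rose as scaled by the authors, and the other two did not pass. Hspd1 encodes HSP60, the barrel in which imported proteins fold, and Hspe1 encodes HSP10, its lid. Hspd1 was at 3697.4, 3974.9 and 3923.3 in pyruvate arrays, against 3244.8, 3522.2 and 3299.0 in untreated arrays, with no overlap. Hspe1 was at 2641.3, 3010.9 and 2971.1 in pyruvate arrays, against 2627.6, 2588.3 and 2325.7 in untreated arrays. Pyruvate replicate 1 of Hspe1 lay just above the highest untreated array.

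The 2 genes rose by like amounts, Hspd1 by 0.20 with a standard error of 0.05 (adjusted p = 0.012) and Hspe1 by 0.19 with a standard error of 0.06 (adjusted p = 0.042). Both rises were close to the median of 0.17 for genes of that brightness. After quantile normalization Hspd1 was at -0.02 (adjusted p = 0.68) and Hspe1 at 0.07 (adjusted p = 0.37), so neither call held. Without a variance trend the adjusted p was 0.059 for Hspd1 and 0.13 for Hspe1. Hspd1 was not called without untreated replicate 1 (adjusted p = 0.070), and Hspe1 was called on leaving out pyruvate replicate 1 but no other array (adjusted p up to 0.17). The dimmer Hspe1 probe set, specific to the gene by its name, was at 877.8, 820.6 and 823.8 in pyruvate and 794.5, 706.4 and 790.6 in untreated arrays (0.14, adjusted p = 0.097).

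Trap1, the mitochondrial HSP90, was at 495.8, 499.1 and 509.7 in pyruvate arrays and 462.3, 453.2 and 452.0 in untreated arrays. Its arrays did not overlap, but the change of 0.13 did not pass (standard error 0.05, adjusted p = 0.065). Hspa9 encodes mitochondrial HSP70, also called mortalin, the motor of import into the matrix. On its brightest probe set it was at 3014.6, 3076.2 and 2883.6 in pyruvate and 2927.5, 2852.1 and 2926.7 in untreated arrays, which overlapped (0.04, adjusted p = 0.52). After quantile normalization that probe set was at -0.12 (adjusted p = 0.031).

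Other Hspa9 probe sets gave another picture. The next in brightness was at 1622.0, 1498.0 and 1771.7 in pyruvate arrays, against 2349.5, 2397.0 and 1943.5 in untreated arrays, and it fell by 0.45 with a standard error of 0.08 (adjusted p = 0.0018). Another, whose name ends in x_at, marking probes that can bind other sequences, fell by 0.37 (adjusted p = 0.0050). Its pyruvate arrays ran from 185.1 to 217.0 and its untreated arrays from 245.5 to 285.0. The remaining tested one was at 0.11 and was not called (adjusted p = 0.55). Both falls were called on leaving out any single array. The brightest probe set therefore does not stand for all tested probe sets of this gene. Why they differ was not tested.

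**Figure D3:**
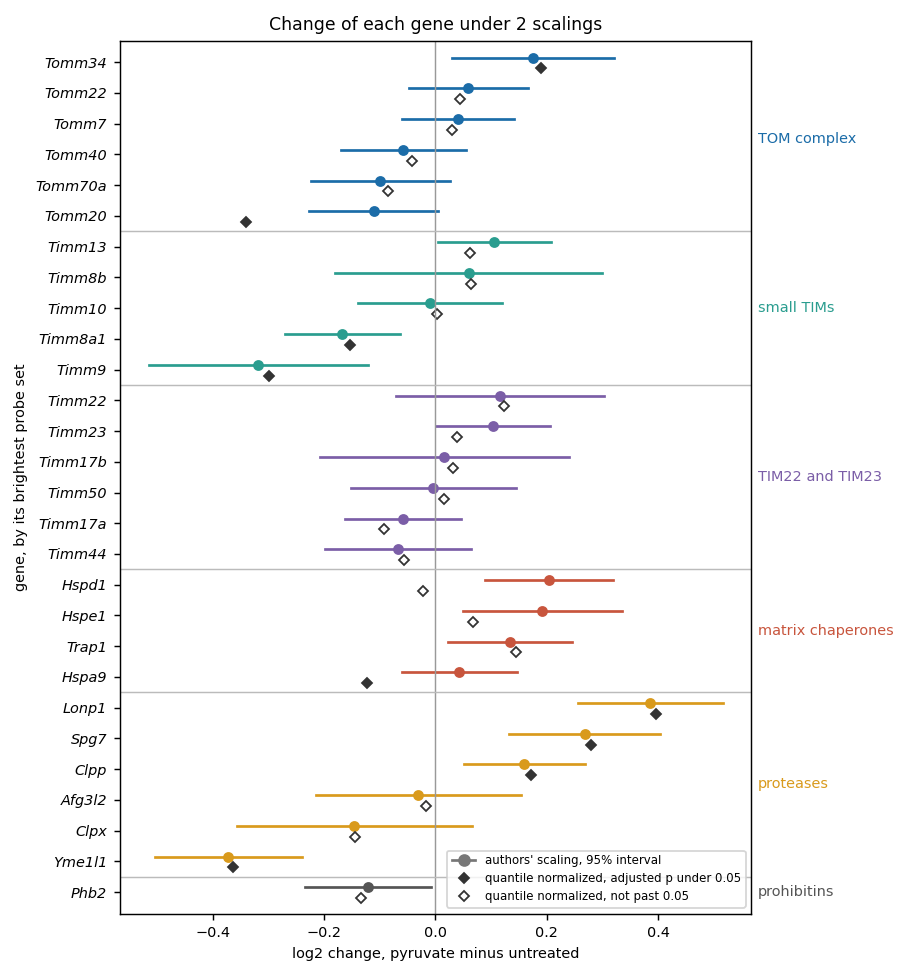
Log2 change, pyruvate minus untreated, of each gene's brightest probe set (horizontal axis) with its 95% interval as scaled by the authors (circles and lines) and after quantile normalization (diamonds, filled where the adjusted p was under 0.05). Tomm20, Hspd1, Hspe1 and Hspa9 shift to the left under quantile normalization, and the other genes stay close to their first value.

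The small TIMs are intermembrane space chaperones that work as rings, Timm9 with Timm10 and Timm8a1 or Timm8b with Timm13. Timm9 was at 91.7, 95.1 and 100.8 in pyruvate arrays, against 128.2, 119.8 and 122.4 in untreated arrays, with no overlap. It fell by 0.32 on the log2 scale with a standard error of 0.09 (adjusted p = 0.019). A dimmer Timm9 probe set was not called (-0.22, adjusted p = 0.25). Its ring partner Timm10 was at 504.6 ± 29.6 in pyruvate and 507.8 ± 16.3 in untreated cells, with overlapping arrays (-0.01, 95% interval -0.14 to 0.12, adjusted p = 0.92). The intervals of the Timm9 and Timm10 changes barely meet, the one ending at -0.12 and the other starting at -0.14, and their difference was not tested.

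Timm8a1, the mouse counterpart of the gene affected in human deafness-dystonia syndrome, was at 695.5, 695.8 and 709.8 in pyruvate arrays, against 799.8, 770.0 and 796.0 in untreated arrays. It fell by 0.17 with a standard error of 0.05 (adjusted p = 0.019). The call was lost after median centring (-0.13, adjusted p = 0.11) and without a variance trend (adjusted p = 0.069). Its second probe set was lower too, at 369.6, 322.4 and 313.6 in pyruvate against 423.3, 392.9 and 416.5 in untreated arrays (-0.28, adjusted p = 0.0096). Without untreated replicate 1 the adjusted p was 0.080 for Timm9 and 0.080 for the brightest Timm8a1 probe set, and without untreated replicate 3 it was 0.051 and 0.059. The dimmer Timm8a1 probe set was called on leaving out any single array (adjusted p at most 0.042).

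Timm8b was the most variable of the small TIMs, from 204.2 to 231.9 in pyruvate arrays and from 179.8 to 254.9 in untreated arrays (0.06, adjusted p = 0.72). Timm13 was at 1545.0, 1607.8 and 1601.8 in pyruvate and 1425.5, 1491.1 and 1498.6 in untreated arrays. Its groups did not overlap, but the difference of 0.11 did not pass (adjusted p = 0.11).

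Translocases of the inner membrane gave no call on their brightest probe sets as scaled by the authors. Timm23 forms the channel for presequence proteins and was at 1968 ± 68.5 in pyruvate and 1830 ± 18.2 in untreated cells (0.10, adjusted p = 0.11). Timm17a and Timm17b encode alternative partners of that channel. Timm17a was at 1322 ± 52.7 in pyruvate and 1377 ± 12.5 in untreated cells (-0.06, adjusted p = 0.38), and it passed after cyclic loess (-0.13, adjusted p = 0.040). Timm17b had arrays of 510.5, 688.7 and 718.6 in pyruvate and 634.1, 628.8 and 613.3 in untreated cells, so that pyruvate replicate 1 lay below and the others above the untreated range. Without that array it was higher by 0.17 (adjusted p = 0.034), against 0.02 with it (adjusted p = 0.92), and Timm23 without it was at 0.13 (adjusted p = 0.048).

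Timm22, the channel of the carrier translocase, ranged from 739.4 to 946.3 in pyruvate and from 720.3 to 784.7 in untreated arrays (0.12, adjusted p = 0.33). Timm50, the receptor that meets presequences on the inner side, was at 272.3 ± 13.7 in pyruvate and 273.0 ± 13.5 in untreated cells (0.00, 95% interval -0.15 to 0.14). A much dimmer Timm50 probe set was higher, at 108.2, 84.3 and 107.3 in pyruvate against 53.4, 83.0 and 74.2 in untreated arrays (0.44, adjusted p = 0.040). That call was lost without pyruvate replicate 1 or 3 or untreated replicate 1 or 3 (adjusted p up to 0.16). Timm44, which tethers the HSP70 motor to the channel, was at -0.07 on its brightest probe set (adjusted p = 0.42). Another Timm44 probe set was at 0.02 (adjusted p = 0.83). The remaining one, with a name ending in x_at, fell by 0.51 (adjusted p = 0.014, and 0.067 with no signal filter). Its pyruvate arrays were 259.3, 403.7 and 410.6, against untreated arrays of 543.5, 487.1 and 494.6. Over the 6 genes of this group, the 95% intervals reached from -0.21 to 0.30.

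The TOM group was close to level on its brightest probe sets. Tomm40, the pore, was at 512.8, 529.3 and 509.1 in pyruvate and 526.7, 537.7 and 552.0 in untreated arrays (-0.06, adjusted p = 0.43). Tomm22, which organises the complex and passes precursors to the pore, was at 1086 ± 12.3 in pyruvate and 1042 ± 41.8 in untreated cells (0.06, adjusted p = 0.39). Tomm34, a cytosolic co-chaperone of precursors, was at 386.6, 351.1 and 362.2 in pyruvate and 335.1, 300.4 and 333.4 in untreated arrays. It did not overlap between groups and did not pass (0.18, adjusted p = 0.064), though it did after quantile normalization (0.19, adjusted p = 0.046).

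Tomm20, Tomm70a and Tomm7 could not be summed up by 1 probe set. Tomm70a encodes the receptor for carrier precursors that arrive with cytosolic chaperones. Its brightest probe set was at 561.5 ± 28.7 in pyruvate and 602.3 ± 24.8 in untreated cells (-0.10, adjusted p = 0.22). The next in brightness was at 441.6, 408.7 and 417.2 in pyruvate arrays, against 566.4, 580.6 and 615.6 in untreated arrays, with no overlap. It fell by 0.46 with a standard error of 0.06 (adjusted p = 0.00012). The third fell by 0.38 (adjusted p = 0.00097) and the fourth by 0.34 (adjusted p = 0.040), so 3 of its 4 tested probe sets were lower and 0 higher. The fourth was called on leaving out pyruvate replicate 2 but no other array (adjusted p up to 0.15), and the other two on leaving out any single array. The mean over the gene's probe sets was lower by 0.31 (adjusted p = 0.0046).

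Tomm20 encodes the receptor for presequences, and its 6 probe sets split. The brightest was at 3274 ± 167 in pyruvate and 3536 ± 102 in untreated cells (-0.11, adjusted p = 0.13), and at -0.34 after quantile normalization (adjusted p = 0.00018). Without pyruvate replicate 2 it was at -0.15 (adjusted p = 0.042). Another was at 713.1, 691.5 and 709.4 in pyruvate arrays, against 939.8, 925.6 and 1095.4 in untreated arrays, and fell by 0.47 (adjusted p = 0.00024). A dimmer one, at 207.4, 215.9 and 205.0 in pyruvate and 166.7, 180.9 and 157.9 in untreated arrays, rose by 0.29 (adjusted p = 0.013, and 0.054 without untreated replicate 3). The remaining 3 were not called.

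Tomm7, a small subunit that modulates assembly of the complex, gave opposite calls as well. Its brightest probe set was at 989.1 ± 16.9 in pyruvate and 961.2 ± 14.7 in untreated cells (0.04, adjusted p = 0.54). A second rose by 0.29 (adjusted p = 0.0012), with 801.3, 821.7 and 798.3 in pyruvate and 658.2, 625.4 and 683.1 in untreated arrays. Another fell by 0.50 (adjusted p = 0.0011), with 232.0, 194.3 and 230.1 in pyruvate and 305.7, 347.2 and 294.2 in untreated arrays. The names of this falling probe set and of the brightest end in x_at, and that of the rising one does not. No direction is given here for this gene.

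**Figure D4:**
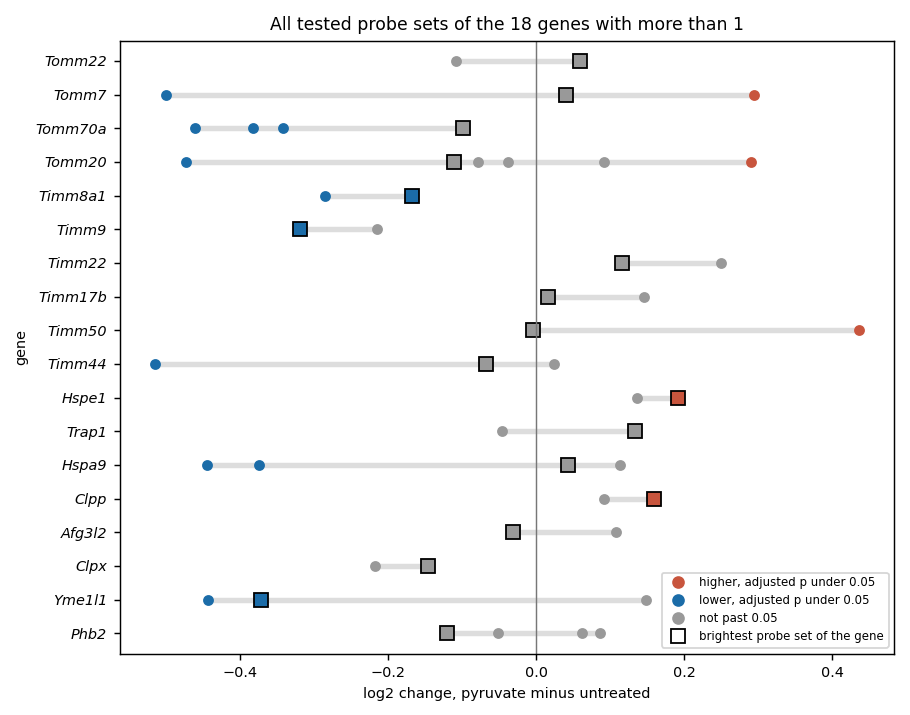
Log2 change, pyruvate minus untreated (horizontal axis), of each tested probe set of the 18 genes with more than 1, with the brightest as a square, red for higher and blue for lower at an adjusted p under 0.05, and grey for not called. Tomm7 and Tomm20 have calls on both sides of 0, the calls of Tomm70a, Hspa9 and Yme1l1 lie to the left, and both Timm8a1 probe sets are lower.

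Probe sets of the same gene could differ in their calls. The 28 genes had 66 probe sets, of which 59 were tested, with 8 higher and 13 lower. Of all 22519 tested probe sets 32.2% were called, 3678 higher and 3572 lower. Of the 18 listed genes with more than 1 tested probe set, 10 had probe sets with different calls, 2 of them (Tomm7 and Tomm20) with calls both ways. In 7 none was called, and Timm8a1 was the 1 gene with all tested probe sets called alike. How often calls differ within genes outside the list was not counted. On Affymetrix arrays a name ending in s_at marks probes shared between transcripts and one ending in x_at marks probes that can bind other sequences. Reading each gene by its brightest probe set without such an ending gave 5 higher and 4 lower, with Tomm7 higher (0.29) and Tomm70a lower (-0.46), and Hspe1 no longer called. That reading was chosen after the data were seen.

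Phb2, which forms rings with its partner prohibitin in the inner membrane and there holds the m-AAA protease, was at 975.0, 1043.0 and 1068.6 in pyruvate and 1130.0, 1084.4 and 1144.1 in untreated arrays. The groups did not overlap, and the difference of -0.12 did not pass (adjusted p = 0.097), though it did after cyclic loess (-0.18, adjusted p = 0.017). Its other 3 probe sets were between -0.05 and 0.09 and were not called. Phb, Tomm5 and Tomm6 had probe sets annotated to a second gene as well and were not analysed here.

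Other genes of import and quality control, from a list of 31 outside the set, were measured for 29, each by its brightest probe set alone. Of these 7 rose and 1 fell (27.6% called), below the 35.1% of all genes tested, with a median of 0.06, beside 0.03 for all genes. Oma1, a stress-activated protease of the inner membrane that also cuts OPA1, had the largest rise, with 185.3, 192.8 and 207.3 in pyruvate arrays against 134.5, 107.9 and 125.2 in untreated arrays (0.61, adjusted p = 0.00048). Htra2, a protease of the intermembrane space, rose by 0.39 (adjusted p = 0.00031), at 518.3 ± 18.8 in pyruvate and 391.2 ± 13.1 in untreated cells. The name of its probe set ends in s_at. Of Oma1 and the listed gene Yme1l1, whose proteases both cut OPA1, Oma1 was higher and Yme1l1 lower with pyruvate.

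Hscb, a J-protein co-chaperone of iron-sulfur cluster assembly, rose by 0.52 (adjusted p = 0.00096). Dnaja3, a matrix J-protein partner of HSP70, rose by 0.29 (adjusted p = 0.024, and up to 0.088 without pyruvate replicate 3 or untreated replicate 2). Timm29, a subunit of the TIM22 translocase, rose by 0.35 (adjusted p = 0.029, and up to 0.11 without pyruvate replicate 2 or untreated replicate 2). Romo1, a small inner membrane protein, fell by 0.33, with 537.0, 542.5 and 553.5 in pyruvate and 703.7, 689.8 and 676.0 in untreated arrays (adjusted p = 0.00038). The nucleotide exchange factors of matrix HSP70, Grpel1 (0.11, adjusted p = 0.15) and Grpel2 (-0.07, adjusted p = 0.43), and the processing peptidase subunits Pmpca (0.06, adjusted p = 0.47) and Pmpcb (0.10, adjusted p = 0.34) were not called.

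Precision differed between genes. Among the 20 that were not called, the coefficient of variation within a group ran from 0.91% to 18.5%, and the 95% intervals of their log2 changes lay between -0.36 (Clpx) and 0.32 (Tomm34). Changes within a gene's interval could not be resolved with 3 arrays a group.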

How the data were processed

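RNA of 3 pyruvate and 3 untreated C2C12 samples was measured on 1 array each. The authors deposited 1 linear intensity for each of 45101 probe sets, made with MAS5 per the submitters' processing notes, whose version the labels leave out. Each array's trimmed mean was 150 in these values; that scaling was kept and hides any shift in RNA content of the cells. Precision is limited by the number of arrays.

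After removal of 64 control probe sets, probe sets with a mean log2(signal + 16) under the median (5.534) were not tested. Changes of dim genes are understated on this scale. Names came from the platform annotation through Entrez identifiers. The 2 groups were tested against each other with limma 3.58.1 under R 4.3.3 (eBayes with trend, two-sided, Benjamini-Hochberg over 22519 probe sets), which also gave every adjusted p, and was tested on simulated data. Motifs were searched in the 250 bases before RefSeq starts. Figures used matplotlib 3.10.9.

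All listed members are named by their brightest probe set, and of the other import genes the up to 6 called ones with the largest change. Grpel1, Grpel2, Pmpca and Pmpcb were added after their values were seen. The members and lists were chosen with earlier results of these data known. Labels do not say whether samples were separate cultures, so p-values rest on a spread between samples that may be technical. Same-numbered arrays of the groups did not deviate together (r from -0.0088 to 0.021), so the numbers were not treated as pairs. Alternatives covered pseudocounts, filters, scalings, variance models, the replicate block, probe set choice and each array left out.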

Additional observations from a re-analysis of the deposited data

How the results depend on the processing

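The number of probe sets called, 7250 over the table, was between 5447 and 7500 under other pseudocounts, filters, scalings and variance models, and between 5377 and 7048 with single arrays left out. The listed genes called higher, 5, became 2 without a variance trend and 2 to 6 with single arrays left out. Those called lower, 3, became 5 after quantile normalization and 6 after cyclic loess, and 1 to 4 with single arrays left out. Their median log2 change, 0.03, was 0.062 after median centring (all genes, 0.067), -0.0022 after cyclic loess, 0.059 by the brightest probe set without an s or x ending, and -0.011 to 0.036 with single arrays left out. Quantile normalization turned Hspd1 to -0.022 (adjusted p = 0.68) and Hspa9 to -0.12 (adjusted p = 0.031). The cause of these moves was not tested. With the replicate block 6917 probe sets were called, and 4 listed genes were higher and 3 lower. Clpp was then the 1 listed gene to lose its call. For 4 of 6 arrays the best match in the other group carried the same number. The largest standard errors among the brightest probe sets were those of Timm8b (0.109) and Timm17b (0.102).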
